A study of Mus musculus with 4 samples.

Results

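Transcription factors that mark and maintain blood stem cells were followed in RNA-seq of sorted hematopoietic stem cells (HSC) and common lymphoid progenitors (CLP) of wild-type (WT) and GRK6-/- mice. The 10 genes were Meis1, Hlf, Gata2, Mecom, Runx1, Tal1, Lmo2, Lyl1, Gfi1b and Erg, taken by symbol out of 12417 genes kept. Of these, 9 had a row in each of the 4 libraries, and Erg had a row in 0 of the 4 tables analysed here, neither by symbol nor by Entrez identifier. Erg was therefore given no fold and entered no count below, and the lack of a row was not read as a lack of expression.

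Each genotype gave 1 library of HSC and 1 of CLP, 4 in all, so there were no replicates. Both genotypes were on the C57BL/6 background. WT and GRK6-/- animals were littermates from heterozygous crosses, and the GRK6-/- strain is a germline knockout of the G protein-coupled receptor kinase GRK6. By the general methods of the study the mice were 8 to 12 weeks old, with no other age named for these libraries. The labels name no treatment. The HSC sort took bone marrow cells that were lineage-negative and positive for c-kit and sca-1, a gate that also admits multipotent progenitors. The CLP sort added Il-7Ra to the same markers, so the HSC gate as labelled did not exclude Il-7Ra+ cells. For each group 13 to 15 sorted cells of 3 to 4 mice were picked by pipette and lysed, and their oligo(dT)-primed cDNA was amplified by 20 and then 10 cycles of PCR and sequenced as 1 library. Fewer cells expressing a gene and less RNA per expressing cell cannot be told apart in such a pool. Values are FPKM, fragments scaled to transcript length and to the number of mapped fragments. Levels of different genes are set side by side on this scale below. Whether priming and amplification acted alike on each gene was not measured, so ranks and ratios between genes describe FPKM only.

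As background, most of these factors act together. Tal1 and Lyl1 are related basic helix-loop-helix proteins that pair with E proteins on E-box DNA, Lmo2 is a LIM-only adaptor without DNA binding of its own that joins them through Ldb1 to GATA factors, and Gata2, Runx1 and Erg bind many of the same regulatory regions in stem cells. Meis1 is a homeodomain cofactor of Hox proteins, Hlf a PAR bZIP factor of the most primitive HSC, Mecom (Evi1) a zinc finger factor of long-term HSC, and Gfi1b a zinc finger repressor of stem, erythroid and megakaryocytic cells.

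Gata2 and Gfi1b are shown first by sequence, because they were the members whose difference between genotypes had the same sign in both populations and was past 2-fold in at least 1 of them. The windows run from 250 bases before to 50 bases after each RefSeq transcription start in GRCm38.p6, a build newer than the mm9 of the expression tables. Gata2 has a distal and a proximal start on chromosome 6, with windows at chr6:88193641-88193940 and chr6:88198414-88198713, plus strand. Gfi1b has 1 start on the minus strand of chromosome 2, with its window at chr2:28621933-28622232. Capitals mark matches on either strand to 6 motifs. The letters searched were AGATAA for the GATA motif, CAGNTG for the E-box and GGAAGT for the ETS motif. They were TGTGGT for the RUNX motif, TGACAG for the MEIS motif and AAATCA for the GFI1 motif, and no match overlapped another.
Gata2 distal: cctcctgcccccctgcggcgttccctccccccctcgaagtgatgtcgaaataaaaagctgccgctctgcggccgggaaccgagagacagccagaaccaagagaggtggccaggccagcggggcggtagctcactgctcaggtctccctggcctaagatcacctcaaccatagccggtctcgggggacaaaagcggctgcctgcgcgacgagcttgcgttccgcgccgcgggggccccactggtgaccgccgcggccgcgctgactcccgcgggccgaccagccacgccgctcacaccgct
Gata2 proximal: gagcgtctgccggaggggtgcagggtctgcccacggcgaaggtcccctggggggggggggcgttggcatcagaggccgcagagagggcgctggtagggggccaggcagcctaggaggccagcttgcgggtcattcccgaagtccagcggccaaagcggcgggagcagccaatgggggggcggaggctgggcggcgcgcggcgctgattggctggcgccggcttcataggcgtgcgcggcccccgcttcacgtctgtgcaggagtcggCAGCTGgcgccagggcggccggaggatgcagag
Gfi1b: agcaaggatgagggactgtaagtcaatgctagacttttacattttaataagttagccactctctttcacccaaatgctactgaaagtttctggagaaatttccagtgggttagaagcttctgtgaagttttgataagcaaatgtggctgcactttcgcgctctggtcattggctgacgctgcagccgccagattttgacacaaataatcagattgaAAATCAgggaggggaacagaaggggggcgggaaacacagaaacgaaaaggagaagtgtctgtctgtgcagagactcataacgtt

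The distal Gata2 window held 0 matches, and the proximal window held 1 E-box, CAGCTG. An E-box of this form stood in 51.4% of the 32851 windows of the RefSeq table. The Gfi1b window held 1 match to the GFI1 letters, AAATCA, which 14% of windows held. The windows were also searched for the other members with an entry, and RUNX letters were found 2 times in 1 of the Runx1 windows and 1 time in the window of Meis1 (16.8% of windows held them). GATA letters were found in 1 of the Tal1 windows and 1 of the Erg windows (11.2% of windows). ETS letters were found in the window of Meis1 (23.8% of windows). MEIS letters were found in 1 of the Mecom windows and 2 times in 1 of the Erg windows (19.2% of windows). GFI1 letters also stood in 1 of the Mecom windows. E-box letters also stood in windows of Hlf, Mecom, Runx1, Tal1, Lyl1 and Erg. RefSeq windows were found for 9 members and were missing for Lmo2. A match of letters is a description of the sequence and was not tied to any value below.

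In the mm9 tables Gata2 (Entrez Gene 14461) was listed on chromosome 6 from 88148658 to 88157026, a span that holds 1 of the 2 coding transcripts that GENCODE annotates and leaves out the distal start. Mecom (14013) was listed on chromosome 3 from 29850218 to 29912126, whereas the annotated gene extends to 30446930, so its value covers the Evi1 part of the locus. Tal1 (21349) was listed on chromosome 4 from 114732132 to 114744360, a span with 1 of its 4 annotated coding transcripts. The other loci were chromosome 11 from 18780431 to 18918972 for Meis1 (17268), chromosome 11 from 90197849 to 90252231 for Hlf (217082), and chromosome 16 from 92601711 to 92826311 for Runx1 (12394). Lmo2 (16909) lay on chromosome 2 from 103798152 to 103822036, Gfi1b (14582) on chromosome 2 from 28464970 to 28477502, and Lyl1 (17095) on chromosome 8 from 87225356 to 87229220, with ends that differed slightly between tables for Lmo2 and Lyl1.

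Grk6, the targeted gene, was at 42.7 FPKM in WT HSC and 89.4 in the library labelled GRK6-/- HSC, and at 26.9 in WT CLP and 57.6 in the library labelled GRK6-/- CLP. The value went against the genotype labels, although a value per gene does not show whether deleted exons were covered, and every direction between genotypes below rests on these labels. The population labels held for the defining markers: Ly6d, a CLP marker, was listed at 0 in both HSC libraries and at 1438 and 1051 FPKM in CLP, and Il7r was at 0 and 1.08 FPKM in the WT and GRK6-/- HSC libraries against 120 and 75.1 in CLP. Kit, shared by both gates, was at 26.2 to 81.8 FPKM. Markers of other lineages were present. Of 11 erythroid markers 8 had a value, and their summed FPKM was 43.7 and 773 in HSC of WT and GRK6-/- and 20 and 17600 in CLP of WT and GRK6-/-. In GRK6-/- CLP the hemoglobin gene Hba-a2 made up 17220 of this sum, and Alas2 in WT CLP and Slc4a1 in WT CLP and GRK6-/- HSC were among the markers listed at 0. The 6 of 7 B lineage markers with a value summed to 35.5 to 968 FPKM, highest in GRK6-/- CLP. The 6 megakaryocyte markers summed to 150 and 13.1 in HSC of WT and GRK6-/- and 13.5 and 117 in CLP of WT and GRK6-/-, and the 10 neutrophil and monocyte markers to 8059 to 18435. From steps in the lowest values, the libraries were scaled to about 2780000 to 4450000 fragments. The study states its depth in sequenced reads for each lineage, a larger figure. How that figure relates to the estimate was not examined.

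Lmo2 had the highest FPKM of the 9 factors in every library. Its FPKM was 414 and 77.2 in HSC of WT and GRK6-/- and 251 and 323 in CLP of WT and GRK6-/-. These levels lay above those of 98.1%, 90.2%, 96.8% and 97.9% of the genes with a value in the same libraries. The GRK6-/- HSC library stood alone as low, and the other libraries lay between 251 and 414.

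Mecom had the lowest FPKM of the 9 in each library. It was at 6.42 and 2.67 FPKM in HSC of WT and GRK6-/- and 1.52 and 6.65 in CLP of WT and GRK6-/-. The lowest of these came to about 36 fragments (95% exact Poisson interval 25.2 to 49.8), and the other Mecom values to about 56 to 102. Such intervals cover counting error only, since fragments copied by PCR are not independent molecules and the variation between cells and mice was not measured. Gfi1b was next in WT CLP, at 3.22 FPKM or about 26 fragments (interval 17.0 to 38.1). The remaining values of the 9 factors came to at least about 41 fragments, so none of them lay near the 0.112 to 0.18 FPKM that 1 fragment gave in a transcript of 2 kb.

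**Figure D1:**
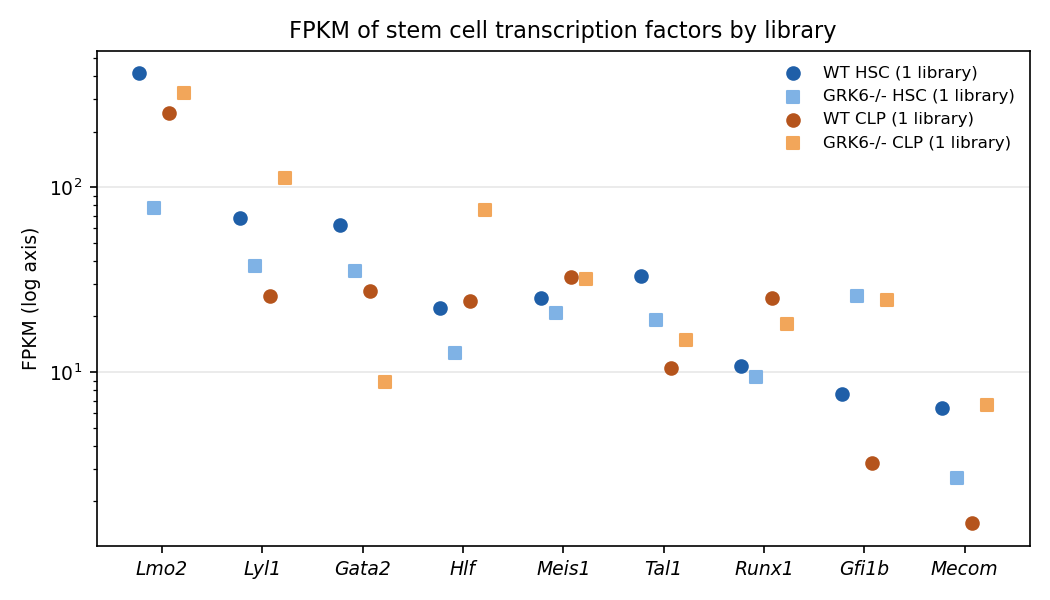
FPKM of the 9 factors with a value, on a log axis, with 1 point per library, ordered by their mean over the libraries. Lmo2 lies highest and Mecom lowest in each library, the points of Meis1 lie within 1.58-fold of each other, and those of Gfi1b span 8.02-fold.

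The factors differed in how much they varied over the libraries. Meis1 varied least, from 20.8 to 32.8 FPKM (highest over lowest 1.58). Runx1 spanned 2.70-fold, Tal1 3.17-fold, Lyl1 4.34-fold, Mecom 4.37-fold, Lmo2 5.36-fold and Hlf 5.92-fold. Gata2 spanned 7.06-fold and Gfi1b 8.02-fold. Over the 4 libraries the extremes fell in different places: Gata2, Tal1 and Lmo2 were highest in WT HSC, Meis1 and Runx1 in WT CLP, Gfi1b in GRK6-/- HSC, and Hlf, Lyl1 and Mecom in GRK6-/- CLP.

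The first comparison asked how the loss of GRK6 bears on these factors in HSC. The library labelled GRK6-/- HSC had lower FPKM than WT HSC for 8 of the 9 factors, and higher FPKM for Gfi1b. Over all genes, 5606 of 11624 were lower and 6018 were higher. Past a log2 ratio of 1 (2-fold, on FPKM + 1, which understates differences of low genes), 2 factors were lower and 1 was higher. Of 11624 genes, 18% were past this threshold downward and 19.3% upward. The median log2 ratio was -0.77 over the 9 factors and 0.05 over the 11624 genes. With 1 library per group this comparison within HSC had no test.

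The adaptor Lmo2 showed the largest of these differences, 5.36-fold lower in GRK6-/- HSC (log2 ratio -2.41). In fragments this was about 2089 in WT against 511, and the counting interval of the log2 ratio of FPKM was -2.56 to -2.28. Its bHLH partners lay lower by less: Tal1 was at 33.2 FPKM in WT HSC and 19.2 in GRK6-/- HSC (log2 ratio -0.76), and Lyl1 at 67.7 and 37.6 (log2 ratio -0.83). Gata2, the GATA factor of stem cells and mast cell precursors, was at 62.8 FPKM in WT HSC and 35.1 in GRK6-/- HSC (log2 ratio -0.82). These 3 factors stood at similar ratios and did not pass 2-fold.

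Mecom was 2.40-fold lower in FPKM in GRK6-/- HSC, with a log2 ratio of -1.02 that lay just past the threshold. From about 102 and 56 fragments, the exact binomial interval of the log2 ratio of FPKM was -1.75 to -0.77, which includes the threshold, and a pseudocount of 10 in place of 1 gave -0.37. Hlf was at 22.3 FPKM in WT HSC and 12.7 in GRK6-/- HSC (log2 ratio -0.77). Meis1, at 25.3 and 20.8 FPKM, and Runx1, at 10.8 and 9.35 FPKM, had log2 ratios of -0.27 and -0.18. For Runx1 the counting interval of -0.47 to 0.06 included 0, so a difference was not detectable at this depth.

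Gfi1b went the other way. It was at 7.66 FPKM in WT HSC and 25.8 in GRK6-/- HSC, 3.37-fold higher (log2 ratio 1.63). Erythroid markers were higher in the same library: 7 of 8 with a value, Gata1 included, passed 2-fold upward, among them Klf1, the erythroid Krüppel-like factor, at 3.88 and 51.5 FPKM, and Car1 at 24.5 and 612 FPKM. Of 5 megakaryocyte markers with a value there, a lineage that Gfi1b also serves, 3 were past 2-fold lower, 1 was past 2-fold higher (Ppbp, listed at 0 in WT HSC and at 2.20 FPKM in GRK6-/- HSC) and 1 was neither. Among the lower were Pf4, at 75.4 FPKM in WT HSC and listed at 0 in GRK6-/- HSC, and Itga2b, at 47.0 and 4.20 FPKM. The part of erythroid or megakaryocytic cells in the values of the factors was not tested.

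In CLP the same question gave another picture. The library labelled GRK6-/- CLP had higher FPKM than WT CLP for 6 of the 9 factors, of which 4 passed 2-fold, and 1 of the 3 with lower FPKM passed it. Of 11191 genes, 5767 were higher and 5424 lower, and 26.6% passed the threshold upward and 23.4% downward. The median log2 ratio was 0.48 over the 9 factors and 0.05 over these genes.

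Gfi1b had the largest difference, at 3.22 FPKM in WT CLP and 24.7 in GRK6-/- CLP, 7.67-fold higher (log2 ratio 2.61, about 26 against 125 fragments). Lyl1 was at 25.9 FPKM in WT CLP and 112 in GRK6-/- CLP, 4.34-fold higher (log2 ratio 2.07). Hlf was at 24.1 and 75.0 FPKM (log2 ratio 1.60), and the GRK6-/- CLP value was the highest of the 4 for Hlf. Mecom, at 1.52 and 6.65 FPKM, had a log2 ratio of 1.60, which a pseudocount of 10 brought to 0.53.

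Gata2 alone passed 2-fold downward in CLP, at 27.6 FPKM in WT CLP and 8.89 in GRK6-/- CLP, 3.11-fold lower (log2 ratio -1.53). With a pseudocount of 10 the value was -0.99. Tal1, at 10.5 and 15.0 FPKM (log2 ratio 0.48), and Lmo2, at 251 and 323 FPKM (log2 ratio 0.37), stayed within 2-fold. Runx1, at 25.3 FPKM in WT CLP and 18.2 in GRK6-/- CLP, had a log2 ratio of -0.45. Meis1, at 32.8 and 31.7 FPKM, had a log2 ratio of -0.05 with a counting interval of -0.26 to 0.16, not detectably different at this depth.

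The GRK6-/- CLP library also stood apart in other lineages, and no comparison of GRK6-/- CLP could be made without it. All 8 erythroid markers with a value were past 2-fold upward, with Hba-a2 at 17.4 FPKM in the WT library and 17220 in the GRK6-/- library. So were 6 of 6 B lineage markers, with Vpreb1 at 16.4 and 246 FPKM, and 4 of 5 megakaryocyte markers, with Itga2b at 2.52 and 46.0 FPKM. The 3 of 6 mast cell and basophil markers with a value summed to 1.27 FPKM in this library, against 25.6 in WT CLP and 141 to 151 in HSC. Of these, 2 were past 2-fold lower than in WT CLP, among them Mcpt8 at 22.4 FPKM in WT CLP and listed at 0 in GRK6-/- CLP, while Cpa3 was listed at 0 in WT CLP and at 0.80 FPKM in GRK6-/- CLP. Their part in the values of Lyl1, Gfi1b, Mecom, Hlf and Gata2 was not tested.

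**Figure D2:**
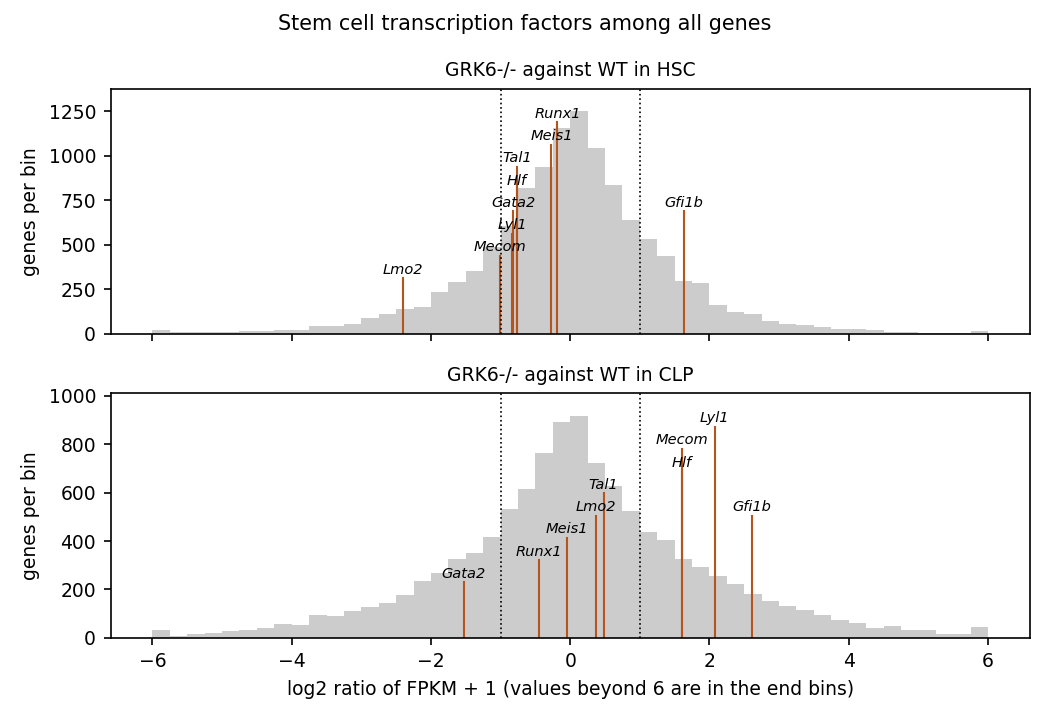
Histograms of the log2 ratio of FPKM + 1 for GRK6-/- against WT over 11624 genes in HSC and 11191 genes in CLP, in bins of log2 0.25, with a line for each of the 9 factors. Dotted lines mark 2-fold and line heights carry no value. In HSC 8 of the 9 lines lie below 0, and in CLP 4 lie past 2-fold upward.

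Over both populations, Gfi1b was past 2-fold upward in HSC and in CLP, a pattern that 5.66% of 10398 genes with a value in both comparisons had. The opposite pattern of 2-fold lower in both GRK6-/- libraries was found in 4.43% of genes and in 0 of the 9 factors. Mecom was past 2-fold lower in HSC and past 2-fold higher in CLP, as were 5.69% of genes. Gata2, Meis1 and Runx1 had lower FPKM in the GRK6-/- library of both populations, while Hlf, Tal1, Lmo2 and Lyl1 were lower in HSC and higher in CLP.

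A limma model of log2(FPKM + 1) with population and genotype as terms was fitted to 11230 genes with 1 residual degree of freedom. It takes as error the amount by which the genotype difference differs between HSC and CLP. For genotype it called 0% of genes at an adjusted p under 0.05 (0 genes, lowest adjusted p 0.0587, and 500 genes with an unadjusted p under 0.05), and 0 of the 9 factors. The largest estimate among the factors was that of Gfi1b, 2.12 on the log2 scale (SE 0.94), higher in 2 of 2 GRK6-/- libraries, with an unadjusted limma p of 0.0527 and an adjusted p of 0.999. Gata2 followed with -1.18 (SE 0.93, limma adjusted p 0.999). The estimates of the other 7 factors lay between -1.02 and 0.62.

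The second comparison set HSC against CLP within each genotype. In WT, 5 of the 9 factors were past 2-fold higher in HSC and 1 was past 2-fold lower, where 24.7% and 21.8% of 11202 genes were. The median log2 ratio was 1.04 over the factors and 0.08 over these genes. Tal1 had the largest of these ratios on the log2(FPKM + 1) scale, at 33.2 FPKM in WT HSC and 10.5 in WT CLP (log2 ratio 1.58). Mecom (log2 ratio 1.56), Lyl1 (1.35), Gata2 (1.16) and Gfi1b (1.04) followed. The counting interval for Gfi1b, 0.50 to 2.01 on FPKM without the 1 added, included 2-fold. Runx1, which serves both stem cells and lymphoid cells, was lower in HSC, at 10.8 FPKM against 25.3 in CLP (log2 ratio -1.16). Lmo2 stood at 0.72, while Hlf and Meis1 stood at -0.11 and -0.36, and for Hlf the interval of -0.30 to 0.08 included 0.

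Between the libraries labelled GRK6-/-, the order differed. There 1 factor was past 2-fold higher in HSC and 4 were past 2-fold lower, where 23.4% and 22.3% of 11708 genes were. The median log2 ratio was -0.89 over the factors and 0.08 over these genes. Gata2 was higher in HSC, at 35.1 FPKM against 8.89 in CLP (log2 ratio 1.87), as in WT. Hlf, at 12.7 and 75.0 FPKM, was 5.92-fold lower in HSC (log2 ratio -2.47), and Lmo2, at 77.2 and 323 FPKM, was 4.19-fold lower (log2 ratio -2.05). Lyl1 and Mecom were also lower, with log2 ratios of -1.55 and -1.06. The counting interval for Mecom, -1.82 to -0.83 on FPKM without the 1 added, included 2-fold. Runx1 (-0.89) and Meis1 (-0.59) were lower in HSC by less than 2-fold, Tal1 (0.34) was higher by less, and Gfi1b, at 25.8 and 24.7 FPKM, stood at 0.06 with a counting interval of -0.27 to 0.41.

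**Figure D3:**
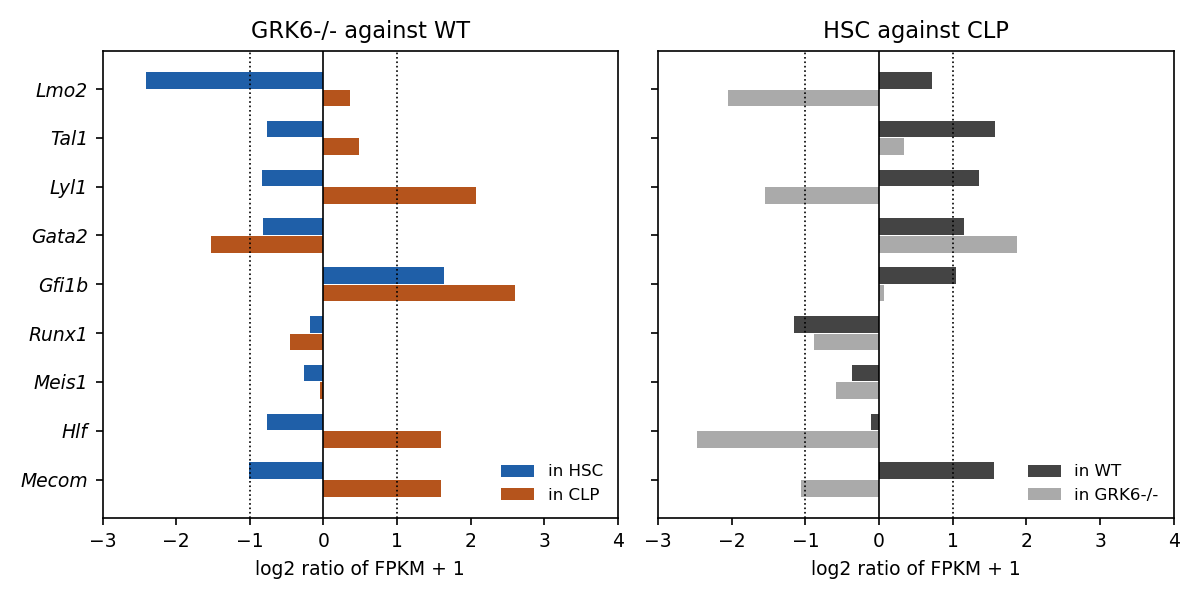
Log2 ratios of FPKM + 1 for the 9 factors, GRK6-/- against WT in HSC and CLP on the left and HSC against CLP in WT and GRK6-/- on the right, 1 library per group. Dotted lines mark 2-fold. Gata2, Gfi1b, Meis1 and Runx1 have bars of the same sign on the left, and Lmo2, Lyl1 and Mecom have bars of opposite sign in both panels. The left and right panels use the same 4 libraries.

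In the same limma fit 1 gene of 11230 (0.0089%) was called between HSC and CLP, the CLP marker Ly6d (estimate -10.27, SE 0.93, limma adjusted p 0.0297), named after its values were seen. Of the factors 0 were called, with adjusted limma p of at least 0.924. Gata2 had the largest estimate, 1.51 on the log2 scale higher in HSC (SE 0.93, limma adjusted p 0.924), and was higher in 2 of 2 genotypes. Runx1, at -1.03 (SE 0.93), was lower in HSC in 2 of 2 genotypes.

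Several members have a close relative or partner in the tables, and their levels were set side by side within each library, pairs chosen after the values had been seen. Lyl1 and Tal1, the related bHLH factors, kept a like ratio in 3 libraries: Lyl1 was at 2.04 times the FPKM of Tal1 in WT HSC, 1.96 times in GRK6-/- HSC and 2.48 times in WT CLP. In GRK6-/- CLP the ratio was 7.50. Gata1, the GATA factor that takes the place of Gata2 as erythroid cells mature, was at 5.45 and 26.1 FPKM in HSC of WT and GRK6-/- and 0.265 and 15.7 in CLP of WT and GRK6-/-. Gata2 thus stood at 11.5 times Gata1 in WT HSC and 1.34 times in GRK6-/- HSC, while in GRK6-/- CLP Gata1 stood at 1.76 times Gata2. In WT CLP Gata1 was too near the value of 1 fragment for a ratio.

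Gfi1, the relative of Gfi1b that stem cells and lymphoid and myeloid progenitors use, was at 37.6 and 36.6 FPKM in HSC of WT and GRK6-/- and 24.1 and 18.3 in CLP of WT and GRK6-/-. Gfi1 was 4.91 times Gfi1b in WT HSC and 7.49 times in WT CLP, against 1.42 times in GRK6-/- HSC and 0.740 times in GRK6-/- CLP. In both populations the library labelled GRK6-/- had the lower ratio of Gfi1 to Gfi1b, the higher FPKM of Gata1 and the lower FPKM of Gata2. It also had the higher erythroid marker sum, a list that includes Gata1. Gfi1 was nearly level between the HSC libraries, so its ratio there mainly restates Gfi1b. The megakaryocyte marker sum was lower in GRK6-/- HSC (150 FPKM in WT and 13.1 in GRK6-/-) and higher in GRK6-/- CLP (13.5 and 117). These values were set side by side after they had been seen, and a link between them was not tested.

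**Figure D4:**
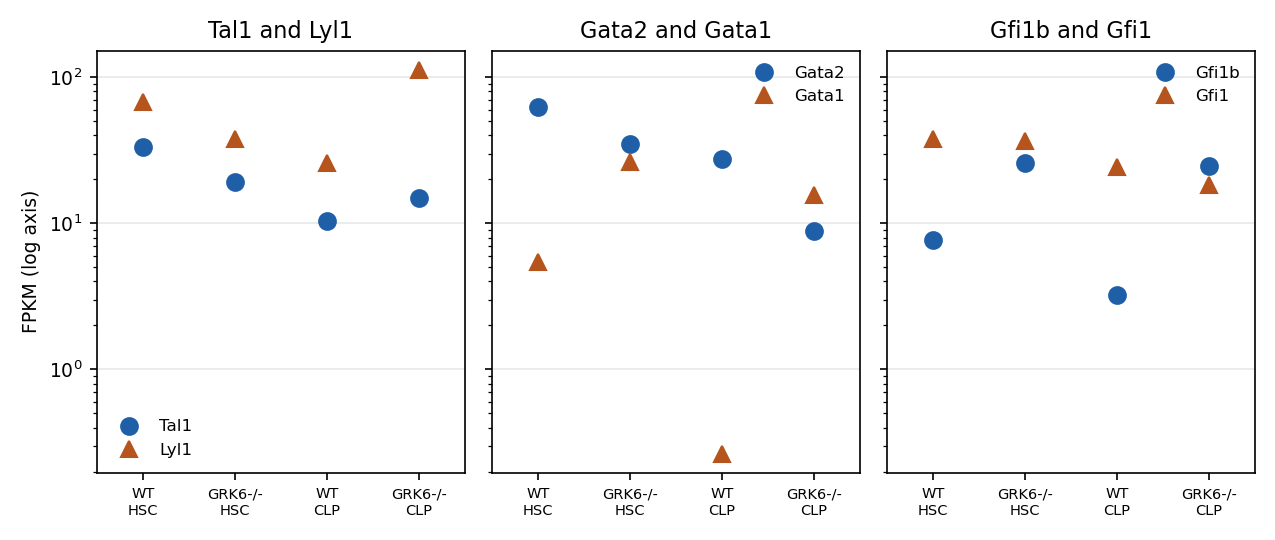
FPKM on a log axis of Tal1 with Lyl1, Gata2 with Gata1 and Gfi1b with Gfi1 in the 4 libraries, 1 point per gene and library. Lyl1 lies above Tal1 in each library. Gata1 and Gfi1b lie higher in each GRK6-/- library than in the WT library of the same population.

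For the adaptor Lmo2, its bridging partner Ldb1 was at 75.2 and 59.7 FPKM in HSC of WT and GRK6-/- and 20.4 and 55.1 in CLP of WT and GRK6-/-. Lmo2 was 5.50 times Ldb1 in WT HSC, 1.29 times in GRK6-/- HSC, 12.3 times in WT CLP and 5.86 times in GRK6-/- CLP. Lmo4, another LIM-only protein, was at 42.9, 45.3, 18.9 and 91.7 FPKM in the same order of libraries. Between the HSC libraries Lmo2 thus differed by a log2 ratio of -2.41, against -0.33 for Ldb1 and 0.08 for Lmo4.

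Of 20 partner proteins listed (E proteins, Ldb1, Ssbp proteins, Cbfb, Fli1, Spi1 and corepressors), 19 had a value. In HSC 3 were past 2-fold higher in GRK6-/- and 4 lower, with a median log2 ratio of -0.17. In CLP 4 were past 2-fold higher and 2 lower, with a median of 0.32. Both counts stand beside the shares of all genes given above and call nothing particular to the list. Fli1, the ETS factor that binds with Erg, was at 28.5, 24.9, 28.0 and 35.2 FPKM in WT and GRK6-/- HSC and then WT and GRK6-/- CLP. Spi1 (PU.1, listed as Sfpi1) was at 133, 202, 177 and 72.8 FPKM in that order, and the corepressor Ctbp1 at 89.3, 146, 173 and 132.

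Cbfb, the partner that stabilises Runx1 on DNA, was at 64.2 FPKM in WT HSC and 29.7 in GRK6-/- HSC (log2 ratio -1.09), and at 54.4 and 98.7 in CLP (log2 ratio 0.85). Hdac2, a histone deacetylase, had a log2 ratio of -1.70 in HSC and -0.50 in CLP. In CLP the E protein gene Tcf12 (2.88 and 18.8 FPKM, log2 ratio 2.35) and Ssbp2, which binds Ldb1 (12.5 and 42.6 FPKM, log2 ratio 1.69), had the largest ratios of the list.

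Of 18 family relatives listed, 13 had a value. In HSC 1 was past 2-fold higher in GRK6-/- and 3 were lower (median log2 ratio -0.04), where 19.3% and 18% of all genes were. In CLP 3 were higher and 1 lower (median 0.53 over the 12 with a value there), where 26.6% and 23.4% of all genes were. Gata1 was past 2-fold higher in both, with log2 ratios of 2.07 and 3.72. Gata3 was at 10.8 and 1.63 FPKM in WT and GRK6-/- HSC (log2 ratio -2.17). Runx2 was at 17.1, 7.33, 42.4 and 76.1 FPKM and Runx3 at 17.6, 29.7, 29.0 and 44.1 FPKM, in the same order, and Lmo1 was at 21.0 FPKM in WT CLP and listed at 0 in GRK6-/- CLP.

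The profiles over the 4 libraries were also compared among the factors, by the Euclidean distance between log2(FPKM + 1) values centred on each gene's mean. Lyl1 and Mecom were nearest to each other (distance 0.50), followed by Meis1 and Runx1 (0.62). Gata2 and Hlf were farthest apart (3.57). The nearest to Tal1 was Mecom (1.08), to Hlf Lyl1 (1.24), to Gata2 Tal1 (1.53), to Lmo2 Meis1 (1.55), and to Gfi1b Lyl1 (1.90). With 4 points per profile these distances are a description.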

How the data were processed

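RNA-seq of 4 pooled libraries was used, 1 for each population and genotype. Per the labels and the study's methods the authors aligned reads to mm9 with TopHat 1.4.0 and the Tuxedo suite, and deposited 1 FPKM value per gene and library, already scaled to length and mapped fragments, without counts or confidence bounds. Settings and annotation are not given in the sources used here. Rows that shared a symbol were added up, genes without a row counted as 0, and 333 genes and joint names of rows naming several genes were left out. Starts in the tables were taken to count from 0 and were raised by 1. Listed symbols absent from the tables were matched by Entrez identifier through the RefSeq table.

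Differences are log2 ratios of FPKM + 1, with a threshold of 1. With 1 library per group, a comparison within 1 population or 1 genotype had no test. Both limma terms, which leave 1 residual degree of freedom over the 4 libraries, were fitted with limma 3.58.1 (R 4.3.3) to genes that reached 1 FPKM in any library, with Benjamini-Hochberg adjustment. The libraries of a population differ in genotype and are not replicates. Fragments were estimated from the steps of the lowest FPKM values, in long genes annotated with 1 transcript (GENCODE vM1, mm9), and the longest coding transcript in the listed span of each factor. They are approximate. Intervals are at 95% and exact (Poisson for fragments, Clopper-Pearson for ratios). Those of ratios are on FPKM without the 1 added. The scripts were tested on simulated data. Values were handled in pandas 2.3.3 and numpy 2.4.6 under Python 3.11.15, with intervals from scipy 1.17.1 and figures from matplotlib 3.10.9.

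The factors, gene lists and markers were chosen with earlier results of these data known. The genes named were the 10 factors, Grk6, and of the lists of partners, relatives and other stem cell factors the 3 with the highest FPKM and the 2 with the largest absolute log2 ratio in each genotype comparison. Some genes under this rule are not reported here. Other partners and relatives (Ldb1, Fli1, Gfi1), the markers and the genes set beside the factors were named after their values were seen. Alternatives were other pseudocounts, rescaling to equal medians, the highest row per symbol, adding joint rows, a stricter threshold, other filters and models with 1 term.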

Additional observations from a re-analysis of the deposited data

Results flagged for a closer look

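The difference between the genotypes had opposite signs in HSC and CLP for 5 of the 9 factors, in libraries without replicates, and the difference was not tested. In log2 ratios of FPKM + 1, CLP minus HSC, it came to 2.91 for Lyl1 (-0.83 in HSC and 2.07 in CLP), 2.77 for Lmo2 (-2.41 and 0.37), 2.62 for Mecom (-1.02 and 1.60), 2.37 for Hlf (-0.77 and 1.60) and 1.24 for Tal1 (-0.76 and 0.48). With 1 library per group any gene whose ratios differ in sign meets this criterion. Over all genes, 5606 of 11624 had a ratio below 0 in HSC and 5767 of 11191 a ratio above 0 in CLP. The share of all genes with opposite signs was not counted, so it cannot be said whether the criterion sets these factors apart.

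Of these, Lyl1, Lmo2 and Mecom also had opposite signs for HSC against CLP in WT and in GRK6-/-, which restates the same 4 values. The population ratio in GRK6-/- minus that in WT was -2.91 for Lyl1 (1.35 in WT and -1.55 in GRK6-/-), -2.77 for Lmo2 (0.72 and -2.05) and -2.62 for Mecom (1.56 and -1.06). These differences were not tested.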

How the results depend on the processing

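Each of the 36 ratios of the 9 factors was recomputed under 5 alternatives, and 180 of 180 values kept their direction. Of these, 172 kept their side of the 2-fold threshold and 8 crossed it, all with a pseudocount of 10, which shrinks ratios of low values by construction: Mecom in each of the 4 comparisons, Gata2 for GRK6-/- against WT in CLP and for HSC against CLP in WT (0.95), and Runx1 (-0.77) and Gfi1b (0.42) for HSC against CLP in WT. The number of factors past the threshold, 5 for GRK6-/- against WT in CLP and 6 for HSC against CLP in WT, was then 3 and 2. The share of all genes past it in these comparisons, 49.98% and 46.5%, was then 21.63% and 18.35%. With a log2 ratio of at least 2 required, the numbers were 1 in place of 3 for GRK6-/- against WT in HSC, 2 in place of 5 in CLP, 0 in place of 6 for HSC against CLP in WT and 2 in place of 5 in GRK6-/-. The shares of all genes fell as well, to 12.43%, 24.8%, 20.46% and 19.13% in the same order. The limma fits called 0 of the 9 factors under 14 of 14 alternatives, with a lowest adjusted limma p among them of 0.835 for population and 0.917 for genotype. Over all genes they called 0 or 1 gene, against 1 for population and 0 for genotype as reported. No paired analysis was possible because the labels carry no replicate numbers and each group had 1 library. Leaving out a library was not run, since it would leave either an empty group or no residual degrees of freedom. Depth limited Mecom and Gfi1b most, with about 36 and 26 fragments in WT CLP, and the pools of few amplified cells set a spread that these files do not show.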

Other observations

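Other transcription factors of stem and progenitor cells, 20 listed and 19 with a value, were looked at in the same way. In HSC 0 were past 2-fold higher in the library labelled GRK6-/- and 2 were lower (median log2 ratio -0.28 over the 18 with a value there). In CLP 6 were higher and 2 lower (median 0.46, also 18). Over all genes, 19.3% were past 2-fold higher and 18% lower in HSC, and 26.6% and 23.4% in CLP. Myb, needed for progenitor proliferation, had the highest FPKM of the list, at 128 and 101 in HSC of WT and GRK6-/- and 114 and 287 in CLP of WT and GRK6-/-. Egr1, an immediate early gene, was at 29.7, 43.9, 102 and 125 FPKM in the same order, and Nfe2 at 108, 76.3, 60.7 and 79.1.

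Hoxb4 was at 3.44 FPKM in WT HSC and 0.41 in GRK6-/- HSC (log2 ratio -1.65), and at 1.76 FPKM in WT CLP and listed at 0 in GRK6-/- CLP. Mycn and Nkx2-3 were listed at 0 in WT CLP and had 16.6 and 7.22 FPKM in GRK6-/- CLP, and in HSC their log2 ratios were -0.06 and -0.48. The genes were not tested.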
